A study of Mus musculus with 24 samples.

Results

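Acetylation of histone H3 lysine 27 (H3K27ac) was compared between forelimb and hindlimb buds of mouse embryos at embryonic day 10.5 (E10.5). The comparison rests on 4 of the 24 samples of the series, the 2 forelimb and 2 hindlimb libraries immunoprecipitated for this mark. Each has its own list of peaks, the intervals where reads passed the threshold of a peak caller. The 4 lists were merged wherever peaks overlapped or touched, which gave 29871 union regions, and a region was detected in a library if at least 1 bp of it was covered by that library's peaks. A region was called forelimb-only when it was detected in both forelimb libraries and neither hindlimb library, which chose 855 regions, or 2.86% of the union. The mirror rule chose 800 hindlimb-only regions, or 2.68%. The number of covered bases was compared as well, by place in the genome and at loci of limb development.

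All embryos were of strain C57BL/6J after an ordinary pregnancy, with no treatment, transgene or mutant allele named in the labels. Limb buds were dissected whole, so each library pools mesenchyme, ectoderm and any vessel, blood or muscle precursor cells present. Fewer cells carrying the mark and less of the mark per cell cannot be told apart in such libraries. The 4 libraries share 1 antibody lot and a paired-end run type. Also used were the 4 E10.5 libraries of trimethylated lysine 27 (H3K27me3, 2 per limb, single-end) and the 2 H3K27ac libraries of E11.5 (1 per limb), which came from the same strain and tissue but, for E11.5, from another antibody lot. For these E11.5 samples the growth protocol names day 10.5, in conflict with their titles and stage labels, and the titles were followed. No label ties the replicates to separate litters, and the spread between them, and any p-value built on it, may therefore be technical.

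H3K27ac is placed by acetyltransferases such as p300 and CBP at active promoters and enhancers, and H3K27me3 is placed on the same residue by Polycomb repressive complex 2 at silenced developmental genes. Since a lysine cannot carry both, the marks exclude each other on a histone tail. Forelimb and hindlimb grow from the same kinds of tissue at different levels of the body axis, under a shared set of outgrowth and patterning genes. A short list of transcription factors differs between them: Tbx5 acts in forelimb initiation, while Pitx1, Tbx4 and Isl1 act in hindlimb. Genes of the HoxC cluster are known for expression in posterior parts of the body, the hindlimb among them.

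Promoter sequences are shown for the hindlimb genes Isl1 and Tbx4, where the limbs differed by small or partial coverage, as described further on. They are the 250 bases upstream of the gene start in the RefSeq table of build GRCm38.p6, 5′ to 3′ on the gene's strand, with CG dinucleotides, the sites of DNA methylation, in capitals.
Isl1: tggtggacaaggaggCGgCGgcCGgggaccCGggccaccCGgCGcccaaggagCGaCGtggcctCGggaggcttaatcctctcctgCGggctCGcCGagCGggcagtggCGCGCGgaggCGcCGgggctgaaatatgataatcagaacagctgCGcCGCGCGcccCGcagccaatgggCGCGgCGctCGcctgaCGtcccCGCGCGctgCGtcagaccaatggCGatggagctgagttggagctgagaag
Tbx4: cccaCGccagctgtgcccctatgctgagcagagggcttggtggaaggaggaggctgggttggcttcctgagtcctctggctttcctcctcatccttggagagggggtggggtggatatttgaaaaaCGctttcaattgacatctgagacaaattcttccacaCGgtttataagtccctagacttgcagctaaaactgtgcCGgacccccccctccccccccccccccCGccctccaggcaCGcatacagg
The Isl1 sequence holds 33 CG dinucleotides, and 96.0% of the 32851 promoters in the table hold fewer. The Tbx4 sequence holds 6, which is the median of all promoters. Each of the 2 genes matched 1 entry by symbol. The other limb identity genes described are Tbx5 and Pitx1.

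The lists differed in length within a limb as much as between limbs. Forelimb replicate 1 held 21363 peaks over 14.7 Mb and forelimb replicate 2 held 13589 over 7.63 Mb. Hindlimb replicate 1 held 17161 peaks over 9.56 Mb and hindlimb replicate 2 held 18838 over 12.1 Mb. Both hindlimb lists thus lay between the forelimb lists. The median peak was 438 to 579 bp wide. Sequencing depth cannot be read from a peak list, so it is unknown here, and a region without a peak is one that did not reach the caller's threshold. Regions of a single library were the most numerous kind, with 15962, and 6081 of them were in forelimb replicate 1. That library also shared 1477 regions with hindlimb replicate 2 alone, more than the 855 it shared with forelimb replicate 2 alone. The union therefore held many regions that did not follow the limb label, and the forelimb-only and hindlimb-only counts are given as descriptions. Leaving out a library loosens the rule, since fewer libraries have to agree, so larger counts are largely built in. The forelimb-only count was 3049 and 7205 without forelimb replicates 1 and 2, and 1400 and 1972 without hindlimb replicates 1 and 2. The hindlimb-only count was 2795 and 1058 without forelimb replicates 1 and 2, and 5115 and 5128 without hindlimb replicates 1 and 2. No exact test over 2 libraries against 2 can give a two-sided p below 0.333.

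Limb-only regions were shorter and lower in rank than regions of all 4 libraries, and close in rank to the union as a whole. The median width was 671 bp for forelimb-only and 599 bp for hindlimb-only regions, against 1408 bp for the 5881 regions detected in all 4 libraries, 307 bp for regions of 1 library and 527 bp for all union regions. By the caller's score, ranked within each list, the median limb-only region stood at percentile 42.5 in forelimb and 41.6 in hindlimb, and the median region of all 4 libraries at 75.0. The median was 28.1 for regions of 1 library and 41.2 for all union regions. Limb-only regions held 3.47% and 5.26% of all covered bases in the forelimb libraries and 3.96% and 3.46% in the hindlimb libraries. Regions of all 4 libraries held 52.3% and 71.0% in forelimb and 60.03% and 58.2% in hindlimb. Most covered bases of each library thus lay in regions that every library touched, by at least 1 bp. By count these regions were 19.7% of the union. They were 31.8% and 54.6% of the regions detected in the forelimb libraries, and 41.2% and 37.7% of those in the hindlimb libraries. Just outside the rule, 1544 regions were in both forelimb libraries and 1 hindlimb library, and 2047 in both hindlimb libraries and 1 forelimb library.

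The limb-only regions with the highest ranks lay partly at Tbx5 and Pitx1, partly in the HoxC and HoxB clusters and partly outside every window. Of the 10 best forelimb-only regions, 5 were in a 100 kb window around Tbx5. The first, chr5:120251833-120256663 (mm9), stood at percentile 99.9 of forelimb replicate 1 and 99.7 of replicate 2. The second, chr5:120284635-120290825, stood at 99.8 and 99.2. It began just past the end of chr5:120281980-120284630, another of the 5 at Tbx5. Regions this close may be pieces of 1 acetylated stretch, so the counts are not of independent places. The other 5 of the 10 were chr8:87559917-87561413, chr1:163934250-163936056, chr17:25997757-25999071, chr7:35354855-35356026 and chr10:11001363-11002469, in none of the locus windows. Of the 10 best hindlimb-only regions, 8 were in windows, with 2 at Pitx1, 5 in HoxC and 1 in HoxB. The first, chr13:55926316-55934651 at Pitx1, stood at percentile 98.9 of hindlimb replicate 1 and 99.9 of replicate 2. The next, chr15:102792829-102797005 in HoxC, stood at 97.8 and 99.98. Another of the 5 HoxC regions, chr15:102797085-102799777, began just past its end. The remaining pair, chr11:70470476-70471857 and chr9:100978453-100979463, lay outside the windows. The windows held 14 of all forelimb-only regions (1.64%) and 36 of all hindlimb-only regions (4.50%), against 261 of all union regions (0.874%). The loci were chosen with earlier results of these data known, so these shares are descriptions and no test of an excess. Of the 14 forelimb-only regions 6 were at Tbx5, and of the 36 hindlimb-only regions 14 were in HoxC.

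**Figure D1:**
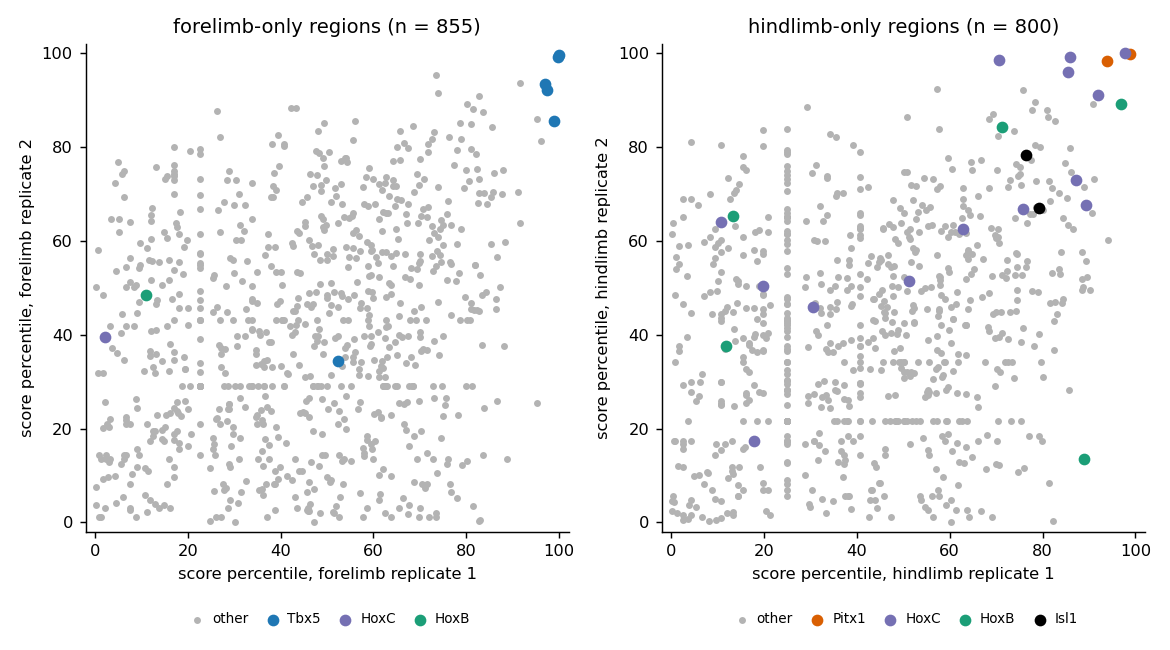
Rank of each limb-only region within the 2 libraries that detected it, as the percentile of its best peak's score in that list (0 to 100, no unit). Left, 855 forelimb-only regions; right, 800 hindlimb-only regions. Each point is 1 region, with the regions of the Tbx5, Pitx1, HoxC, HoxB and Isl1 windows in colour; 5 Tbx5 regions stand in the upper right corner at left, and Pitx1 and HoxC regions in the upper right corner at right, while grey points fill the middle of both plots.

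Few intervals passed a test against the spread of the libraries. With 2 libraries per limb, few calls do not show that few intervals differed. Covered bases were summed in 20 kb bins, and the 7607 bins with a mean of at least 500 bp were tested with limma on log2(covered bp + 500). At a Benjamini-Hochberg adjusted p under 0.05, 4 bins were called (0.0526%), of which 2 were higher in forelimb (0.0263%) and 2 higher in hindlimb (0.0263%). An unadjusted p under 0.05 was found for 147 bins. The median log2 difference over all tested bins was 0.0040, with -0.77 and 0.84 as the bounds that leave out the lowest and highest 5%. Each of the 4 bins had 0 bp in both libraries of 1 limb, so the fitted difference depends on the 500 bp added and the kilobases are the measurement. These bins passed the filter through the other limb alone. The limb at 0 bp showed no spread, so the SE and p do not measure spread in both limbs. Without forelimb replicate 1 no bin passed (lowest limma adjusted p = 0.165, with 698 bins at an unadjusted p under 0.05), and without forelimb replicate 2 none did either (lowest 0.761, 240 bins). The 4 bins kept their direction in both cases, and all 4 passed without either hindlimb library.

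Tbx5, the T-box factor of forelimb initiation, held both bins that were higher in forelimb. The bin chr5:120240001-120260000 had 9.59 and 7.80 kb of H3K27ac in the forelimb libraries and 0 kb in each hindlimb library (limma log2 difference 4.19 ± 0.31 SE, adjusted p = 0.00276). The bin chr5:120280001-120300000 had 11.8 and 8.59 kb in forelimb and 0 kb in each hindlimb library (4.40 ± 0.32, limma adjusted p = 0.00276). H3K27me3 was reversed in both: each forelimb library had 0 kb, and the hindlimb libraries had 15.2 and 15.2 kb in the first bin and 14.5 and 14.8 kb in the second. The forelimb peaks of the locus fell mostly into these 2 blocks. Over the whole window, peaks covered 22.8 and 17.1 kb in forelimb and 0 kb in hindlimb. All 6 limb-only regions among the 11 union regions of this window were forelimb-only, and together they spanned 44.9 kb. The widest single peak reached 4583 bp in replicate 1 and 2720 bp in replicate 2. In the same window at E11.5, 33.8 kb was listed in forelimb and 0 kb in hindlimb.

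Tbx3, a T-box factor of both limbs and the neighbour of Tbx5, did not share this arrangement. It had 4.59 and 2.41 kb of H3K27ac in forelimb and 1.63 and 2.85 kb in hindlimb, and the limbs overlapped (exact permutation p = 0.667, two-sided). With coverage scaled to equal library totals both forelimb libraries were above both hindlimb libraries.

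Pitx1, the homeodomain factor that sets hindlimb identity, held 1 of the 2 bins that were higher in hindlimb. The bin chr13:55920001-55940000 had 0 kb in each forelimb library and 11.7 and 12.5 kb in the hindlimb libraries (limma log2 difference -4.66 ± 0.29 SE, adjusted p = 0.00276). H3K27me3 covered 12.9 and 11.9 kb of it in forelimb and 3.04 and 2.81 kb in hindlimb. The H3K27ac of this bin came from 10 peaks in replicate 1 and 7 in replicate 2, the widest of 2328 and 4072 bp. A group of 5 hindlimb-only regions, chr13:55856227-55942699, took in these peaks and reached over 86.5 kb. Within it the forelimb libraries had 0 kb and the hindlimb libraries 13.9 and 14.8 kb. The rule set the 0 kb inside the 5 regions, but not between them. The E11.5 lists gave this wider interval 2.64 kb in forelimb and 21.4 kb in hindlimb, so some acetylation was listed in forelimb there, although none in the bin itself.

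HoxC held the other such bin. HoxC genes encode homeodomain factors of axial position, and the posterior ones are known for hindlimb expression. The bin chr15:102780001-102800000 had 0 kb in each forelimb library and 9.99 and 15.6 kb in hindlimb (limma log2 difference -4.70 ± 0.33 SE, adjusted p = 0.00276). H3K27me3 covered 16.0 and 14.1 kb of it in forelimb and 1.72 and 1.75 kb in hindlimb. The largest cluster of limb-only regions in the genome was here, with 14 hindlimb-only regions inside 36.6 kb, chr15:102773275-102809836. This interval had 0 kb in both forelimb libraries and 16.0 and 22.5 kb in hindlimb. The rule set the 0 kb inside the 14 regions, but not between them. The next bin, chr15:102800001-102820000, had 0.777 and 0 kb in forelimb and 7.17 and 7.86 kb in hindlimb. It did not pass limma on unscaled coverage (adjusted p = 0.183) or with lists of equal length (limma adjusted p = 0.293). On coverage scaled to equal totals it passed (limma adjusted p = 5.52e-07). In chr15:102820001-102840000 the limbs overlapped, at 2.36 and 1.66 kb against 1.85 and 4.24 kb, and in chr15:102840001-102860000 both forelimb libraries were higher, at 4.48 and 1.66 kb against 1.56 and 0.537 kb (limma adjusted p = 1.00). Only part of the cluster was involved, since the HoxC window as a whole had 8.82 and 3.62 kb in forelimb and 21.7 and 29.2 kb in hindlimb.

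**Figure D2:**
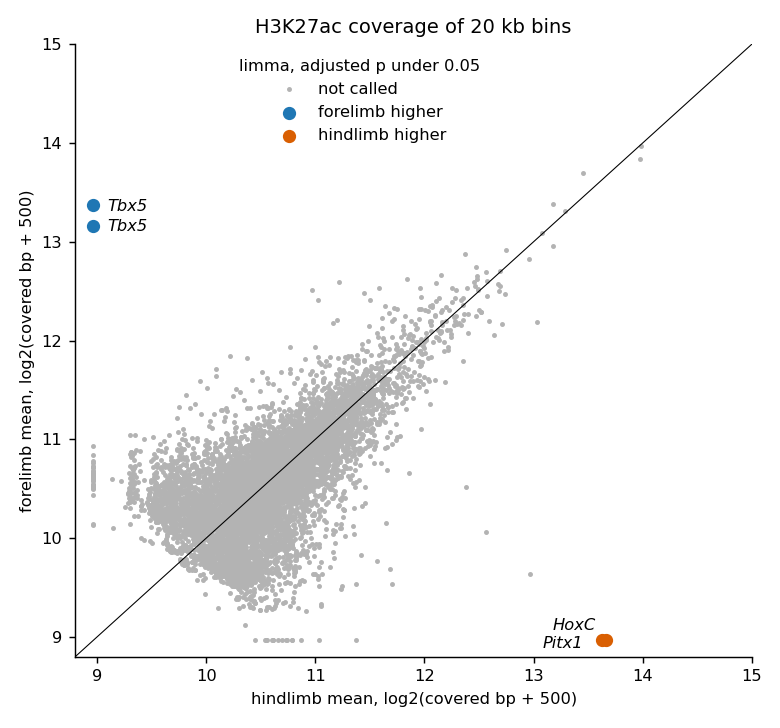
Mean log2(covered bp + 500) of H3K27ac in hindlimb (x axis) and forelimb (y axis) for 7607 bins of 20 kb, each the mean of 2 libraries, with the line of equal values. Blue and orange points are the bins past a limma adjusted p of 0.05; the 2 Tbx5 bins lie at the upper left, at the hindlimb value of 0 bp, and the Pitx1 and HoxC bins at the lower right, at the forelimb value of 0 bp.

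Tbx4, the T-box factor of hindlimb outgrowth, was acetylated in all 4 libraries and more widely in hindlimb. Its window had 4.38 and 1.17 kb in forelimb and 6.45 and 10.8 kb in hindlimb. Both hindlimb libraries were above both forelimb libraries (exact permutation p = 0.333, two-sided, the smallest possible). The gap lay in chr11:85700001-85720000, with 0.946 and 0.292 kb in forelimb and 4.86 and 6.38 kb in hindlimb (limma log2 difference -2.50 ± 0.38 SE). This bin did not pass on unscaled coverage (limma adjusted p = 0.295) or with lists of equal length (limma adjusted p = 0.080). It passed on coverage scaled to equal totals (limma adjusted p = 2.73e-05). H3K27me3 covered 7.06 and 7.03 kb of it in forelimb and 2.04 and 1.86 kb in hindlimb. The same bin at E11.5 had 0.863 kb in the forelimb list and 10.7 kb in the hindlimb list. Tbx2, the T-box neighbour of Tbx4, overlapped between the limbs, at 2.21 and 0.326 kb against 1.18 and 1.75 kb.

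Isl1, a LIM homeodomain factor that acts upstream in hindlimb initiation, had no H3K27ac peak in either forelimb library. The hindlimb libraries had 3 peaks over 1.96 kb and 4 peaks over 2.58 kb in a window of 30 kb, which was placed with earlier results of these data in view. The limbs did not overlap (exact permutation p = 0.333, two-sided, the smallest possible), and the only tested bin of the window, with 1.44 and 1.29 kb in hindlimb, did not pass (limma adjusted p = 1.00). The ranks of these peaks ran from percentile 52.9 to 79.1 in hindlimb replicate 1 and from 11.3 to 78.3 in replicate 2. H3K27me3 covered 10.4 and 9.72 kb of the window in forelimb and 1.24 and 1.23 kb in hindlimb. Coverage of the window at E11.5 was 0 kb in forelimb and 0.350 kb in hindlimb, so H3K27ac here was small at both stages in comparison with Pitx1.

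**Figure D3:**
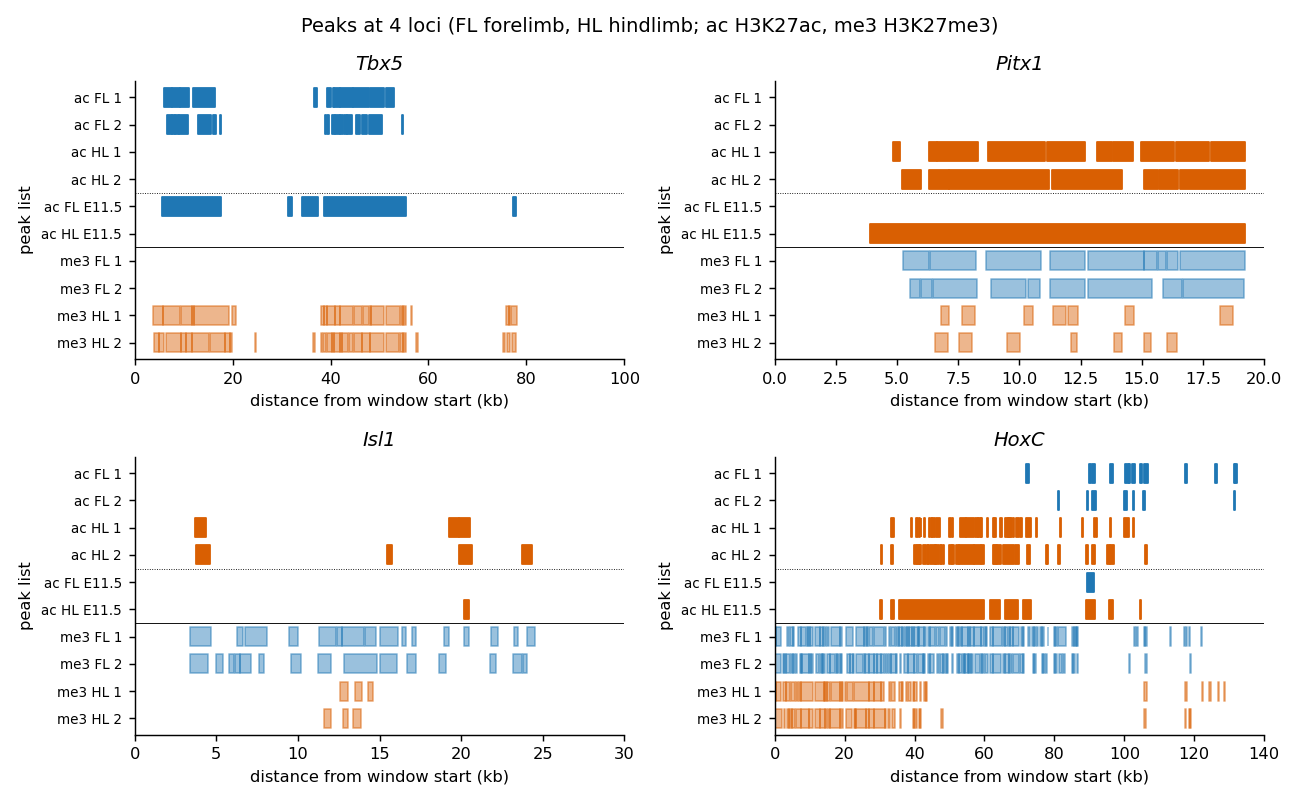
Peaks along the windows of Tbx5, Pitx1, Isl1 and HoxC, with distance from the window's start in kb on the x axis and 1 row per peak list: H3K27ac of E10.5 (4 rows), H3K27ac of E11.5 (2 rows) and H3K27me3 of E10.5 (4 rows), forelimb in blue and hindlimb in orange. At Tbx5 the H3K27ac boxes are all forelimb and the H3K27me3 boxes all hindlimb; at Pitx1 and Isl1 the H3K27ac boxes are all hindlimb; in HoxC hindlimb H3K27ac fills an interval that has H3K27me3 in forelimb.

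The other Hox clusters differed less. HoxB, on chromosome 11, had 9.50 and 7.12 kb in forelimb and 10.1 and 14.3 kb in hindlimb, with no overlap between the limbs (exact permutation p = 0.333, two-sided). The direction was not uniform along it. In chr11:96140001-96160000 the forelimb libraries had 1.03 and 0.904 kb and the hindlimb libraries 3.79 and 6.09 kb (limma adjusted p = 0.750, and 0.00560 on scaled coverage). With lists of equal length that bin did not pass (limma adjusted p = 0.9999). In chr11:96200001-96220000 the forelimb libraries were higher, at 4.79 and 3.53 kb against 2.14 and 1.49 kb (limma adjusted p = 1.00). The HoxB window had 5 hindlimb-only and 1 forelimb-only regions among 26 union regions. HoxA had 40.5 and 29.7 kb in forelimb and 32.6 and 45.6 kb in hindlimb, and HoxD had 27.2 and 17.8 kb against 18.01 and 23.1 kb. Both overlapped between the limbs (exact permutation p = 0.667 and 1.00, two-sided). In HoxA, chr6:52200001-52220000 had 0.347 and 0 kb in forelimb and 1.04 and 1.31 kb in hindlimb (limma adjusted p = 1.00). The bin before it, chr6:52180001-52200000, had 16.3 and 12.3 kb against 14.1 and 17.3 kb.

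Of the 29 windows, which include identity, patterning, marker and housekeeping genes, both forelimb libraries were above both hindlimb libraries in 3, both hindlimb libraries were above in 6, and 20 overlapped. Among the 20 were 4 windows with 0 kb in every library, where no difference could be seen. On coverage scaled to equal totals the counts were 4, 7 and 18. Of the tested bins, which unlike the windows had to reach a mean of 500 bp, 13.5% had both forelimb libraries higher and 10.1% both hindlimb libraries higher, 23.6% in all. Beyond Tbx5, the windows with more in forelimb were Prrx1 and Shox2. Prrx1, a homeobox gene of early limb mesenchyme, had 7.53 and 5.87 kb in forelimb and 3.99 and 5.43 kb in hindlimb. Shox2, a homeobox gene of the proximal limb, had 6.96 and 5.31 kb in forelimb and 1.97 and 4.13 kb in hindlimb, with 2 forelimb-only regions among 5. H3K27me3 in the Shox2 window was 0 and 0.296 kb in forelimb and 4.46 and 3.06 kb in hindlimb. No bin of either window passed limma after adjustment (lowest unadjusted p = 0.0311 at Prrx1 and 0.0571 at Shox2). More H3K27me3 in hindlimb was not particular to windows with less H3K27ac there. H3K27me3 was also higher in both hindlimb libraries at Tbx3, Lmx1b, Fgf8, Grem1, Shh, En1, Pax6, Pax3 and Tal1. In those windows the limbs overlapped in unscaled H3K27ac or had none. At Lmx1b, H3K27me3 was 2.9 and 1.9 kb in forelimb and 10.7 and 9.2 kb in hindlimb. HoxA, where H3K27ac overlapped too, went the other way, at 17.5 and 12.8 kb against 11.9 and 11.9 kb.

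Meis2, a homeobox gene of the proximal limb, had more in hindlimb, with 4.18 and 4.04 kb in forelimb and 6.29 and 8.40 kb in hindlimb, while its paralogue Meis1 overlapped at 8.57 and 5.08 kb against 7.84 and 11.9 kb. Once scaled for list totals, both hindlimb libraries were higher at Meis1 as well, at 9.02 and 10.8 kb against 6.42 and 7.32 kb. Lmx1b, the LIM homeodomain factor of dorsal identity, had 14.9 and 8.37 kb in forelimb and 9.73 and 9.40 kb in hindlimb. Hand2, a posterior regulator, had 3.82 and 1.76 kb against 1.19 and 4.45 kb. Gli3, the anterior effector of Hedgehog signalling, had 4.67 and 3.62 kb against 3.40 and 4.18 kb. On unscaled coverage the limbs overlapped at Meis1, Lmx1b, Hand2 and Gli3. Among signals, Fgf10 of the outgrowth mesenchyme had 2.27 and 0.913 kb in forelimb and 1.40 and 1.12 kb in hindlimb. Fgf8 of the ectodermal ridge had 0.902 and 0.636 kb against 1.05 and 0.898 kb. The BMP antagonist Grem1 had 0.641 kb in forelimb replicate 1, 0.481 kb in hindlimb replicate 2 and 0 kb in the others. The limbs overlapped at these signals too. The posterior signal Shh and the ventral ectoderm factor En1 had 0 kb in all 4 libraries.

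Markers of the mesenchyme were acetylated in every library, and those of nerve, blood and muscle were at or near 0 kb. Twist1, a mesenchyme gene, had 5.06 and 4.31 kb in forelimb and 2.42 and 5.79 kb in hindlimb, so all 3 mesenchyme markers, Prrx1, Twist1 and Shox2, had peaks in every library. The cartilage precursor gene Sox9 had 0 to 0.622 kb. The neural gene Pax6 and the blood and endothelial gene Tal1 had 0 kb in all 4 libraries, and the muscle precursor gene Pax3 had 0.292 kb in hindlimb replicate 2 and 0 kb elsewhere. The housekeeping gene Actb had 2.61, 2.64, 2.73 and 2.43 kb in forelimb 1, forelimb 2, hindlimb 1 and hindlimb 2, and Gapdh had 2.38, 1.44, 1.02 and 2.29 kb. Coverage at Actb differed little although the lists differed in length, and coverage at Gapdh was lowest in hindlimb replicate 1.

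**Figure D4:**
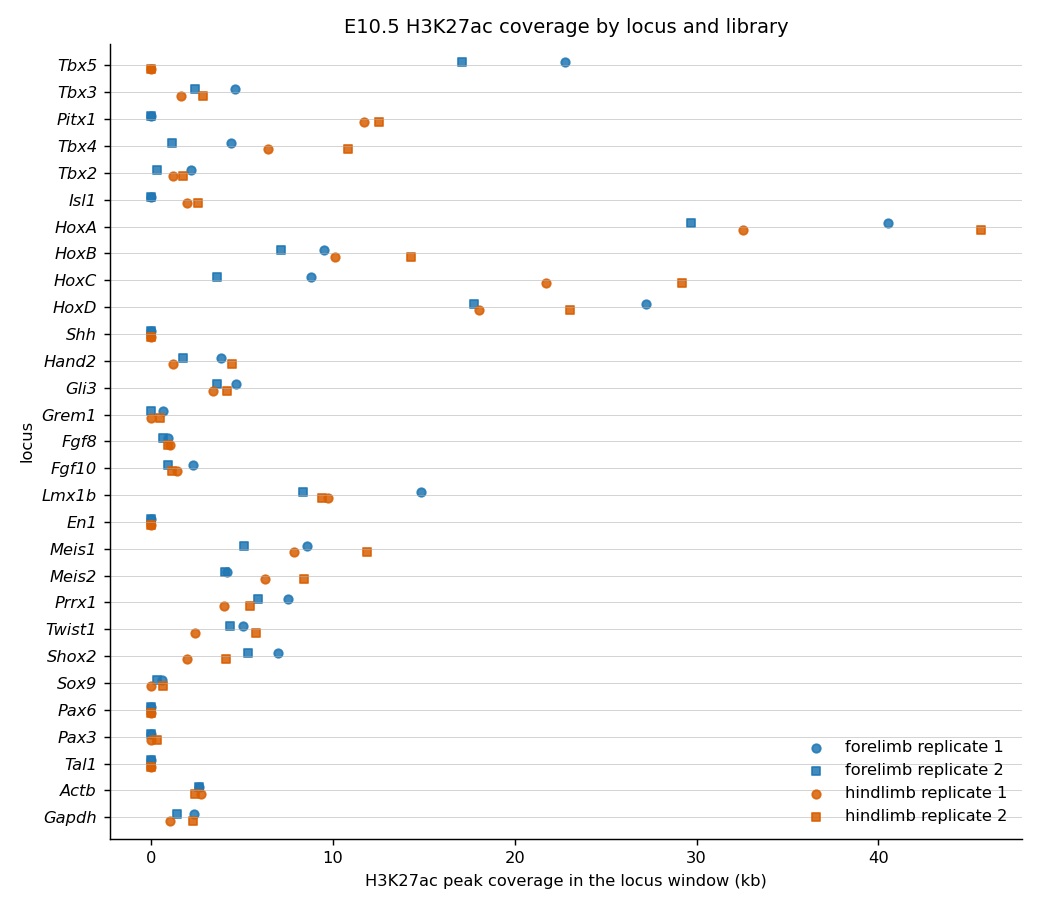
H3K27ac peak coverage in kb (x axis) in 29 locus windows (y axis) for each of the 4 E10.5 libraries; blue marks are forelimb and orange marks hindlimb, circles replicate 1 and squares replicate 2. Windows differ in size, so values are to be compared between limbs within a row; at Tbx5, Pitx1 and Isl1 the marks of 1 limb sit at 0 kb, and in 20 rows the colours overlap.

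Limb-only regions were mostly scattered. Joined within 100 kb, the 855 forelimb-only regions formed 760 groups, of which 683 were single regions, and the 800 hindlimb-only regions formed 673 groups, of which 587 were single. Groups of at least 4 regions numbered 5 in forelimb and 8 in hindlimb. The Tbx5 group of 6 was the largest in forelimb. The other 4, chr2:30608610-30742100 with 5 regions and chr1:163934250-164003136, chr9:108380848-108481955 and chr12:88139952-88229735 with 4 each, all held H3K27ac in hindlimb as well. The chr2 interval had 22.4 and 11.2 kb in forelimb and 11.1 and 13.02 kb in hindlimb, with overlap between the limbs. In the other 3, both forelimb libraries were above both hindlimb libraries, as in the chr1 interval with 14.4 and 7.03 kb against 4.53 and 6.04 kb. These totals include the regions chosen by the rule, which add bases in forelimb and none in hindlimb. A higher forelimb total is thus partly built in and is no separate sign of a difference. In hindlimb, HoxC, Pitx1, HoxB and the Tbx4 and Tbx2 interval made up 4 of the 8 groups, with 14, 5, 5 and 5 regions. The others were chr6:30525943-30624382 with 5 regions and chr12:80816122-80950065, chr10:120153770-120308375 and chr7:149708451-149743626 with 4 each. In 3 of these 4 the limbs overlapped in total coverage. The exception was chr12, with 3.72 and 1.95 kb in forelimb and 5.19 and 5.99 kb in hindlimb. The regions chosen there likewise add bases in hindlimb and none in forelimb, so this gap is partly built in too. Only the Tbx5, HoxC and Pitx1 groups, of all 13, had 0 kb in both libraries of the other limb. Inside the chosen regions that 0 kb was set by the rule, but not in the stretches between them.

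By chromosome the limbs were close. Both forelimb libraries had a higher share of their covered bases than both hindlimb libraries on 5 chromosomes and a lower one on 4, and 12 overlapped. On chromosome 11, which carries Tbx4 and HoxB, the shares were 8.14% and 8.35% in forelimb and 8.60% and 8.57% in hindlimb. On chromosome 5, which carries Tbx5, they were 6.32% and 6.53% against 6.22% and 6.18%. The X chromosome held 19 forelimb-only and 6 hindlimb-only regions of 419 union regions, while its share of covered bases overlapped, at 0.884% and 0.611% against 0.621% and 0.725%.

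The E11.5 lists took no part in choosing the regions. Over all union regions, 58.1% were touched by both lists, 1.73% by the forelimb list alone, 11.6% by the hindlimb list alone and 28.6% by neither. Of the 855 forelimb-only regions, 72.2% were touched by both E11.5 lists, 26 (3.04%) by the forelimb list alone, 87 (10.2%) by the hindlimb list alone and 14.6% by neither. Of the 800 hindlimb-only regions, 57.3% were touched by both, 13 (1.63%) by the forelimb list alone, 141 (17.6%) by the hindlimb list alone and 23.5% by neither. The hindlimb-only share in both lists was thus near that of all union regions. The E11.5 hindlimb list was the longer, with 32612 peaks over 47.2 Mb against 23209 over 31.3 Mb. Forelimb-only regions were covered at E11.5 more often by the hindlimb list (82.3%, 95% Wilson interval 79.6 to 84.7) than by the forelimb list (75.2%, 72.2 to 77.98). Hindlimb-only regions were covered by the hindlimb list in 74.9% (71.8 to 77.8) and by the forelimb list in 58.9% (55.4 to 62.2). For all union regions these shares were 69.7% by the hindlimb list and 59.8% by the forelimb list. These intervals cover counting error only, neighbouring regions are not independent, and with 1 library per limb the E11.5 difference has no replicate check. The shares in the list of the same limb alone were lower when some libraries were left out, with 9.84% of hindlimb-only regions without forelimb replicate 1 and 1.72% of forelimb-only regions without hindlimb replicate 2.

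At Tbx5, Pitx1 and HoxC the limb difference was found again at E11.5. All 6 forelimb-only regions of the Tbx5 window were in the E11.5 forelimb list alone. Among the 10 best ranked, the 5 forelimb-only regions at Tbx5 were covered at E11.5 in forelimb alone and the 5 outside the windows in both limbs. Of the 10 best hindlimb-only regions, the 8 in windows were covered at E11.5 in hindlimb alone and the pair outside in both limbs. All 4 bins called by limma kept their direction at E11.5. The bins at Tbx5 had 12.1 and 15.4 kb in the forelimb list and 0 kb in the hindlimb list, the Pitx1 bin 0 and 15.3 kb, and the HoxC bin 0 and 19.9 kb, in forelimb and hindlimb. With coverage scaled to equal totals, 15 bins passed, against 4 with lists of equal length. Of the 15, 5 were higher in forelimb and 10 in hindlimb. All 10 of the latter had more in hindlimb at E11.5, as did 80.6% of all tested bins, while 16.6% had more in forelimb. Of the 5 former, the 2 at Tbx5 had more in forelimb at E11.5 and the other 3 more in hindlimb. Those 3, chr6:84520001-84540000, chr6:84040001-84060000 and chr9:41380001-41400000, had E11.5 coverage of 7.39 and 8.50, 12.5 and 15.7, and 6.09 and 7.20 kb in forelimb and hindlimb.

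**Figure D5:**
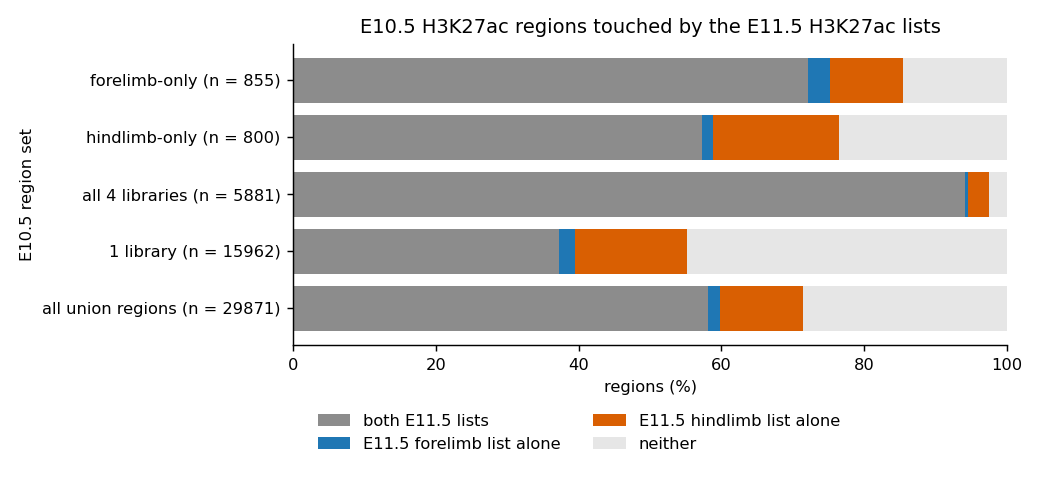
Share of E10.5 H3K27ac regions (x axis, percent) in 5 sets (y axis) touched at E11.5 by both lists (dark grey), the forelimb list alone (blue), the hindlimb list alone (orange) or neither (light grey). Both limb-only sets are mostly dark grey, at 72.2% and 57.3%, and the orange part is larger than the blue part in every set, all union regions included.

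H3K27me3 touched few limb-only regions, though with all 4 libraries used its shares there were at or above those of all union regions. Peaks of both hindlimb H3K27me3 libraries touched 59 (6.90%) of the forelimb-only regions, and peaks of both forelimb libraries touched 25 (2.92%). For hindlimb-only regions these were 55 (6.88%) and 57 (7.13%). Over all union regions they were 4.54% for hindlimb and 2.71% for forelimb, and over regions of all 4 H3K27ac libraries 2.36% and 1.05%. Outside the locus windows, 4.19% of the hindlimb-only regions touched H3K27me3 of both forelimb libraries and 6.02% that of both hindlimb libraries. For forelimb-only regions outside the windows these shares were 2.97% and 6.30%. H3K27me3 of the same limb was thus found at limb-only regions as well as that of the opposite limb. Without hindlimb replicate 2 the forelimb-only shares were 4.41% for hindlimb and 1.88% for forelimb H3K27me3. Without hindlimb replicate 1 the hindlimb-only shares were 4.46% and 3.54%. The second of these was 3.83% without forelimb replicate 1 and 4.21% without hindlimb replicate 2.

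Few regions met 3 criteria together. The first 2 were being limb-only at E10.5 and lying in the E11.5 list of the same limb alone. The third was H3K27me3 of both libraries of the other limb within 10 kb, whether or not the same limb had it. Over all union regions, H3K27me3 lay this near for 10.8% with both hindlimb libraries and 7.79% with both forelimb libraries. In forelimb 26 regions met the first 2 and 11 all 3, of which 6 were at Tbx5. The other 5 lay outside the windows, the best ranked being chr10:80730877-80731479 and chr7:17529185-17529836. In hindlimb 141 regions met the first 2 and 28 all 3, of which 22 were in windows. All 14 hindlimb-only regions of HoxC were among them, with 3 at Tbx2, 2 at Pitx1 and 1 each at HoxB, Isl1 and Tbx4. Regions of the same window lay close together and are not independent. The Tbx2 window had H3K27me3 in both limbs, at 12.3 and 9.13 kb in forelimb and 12.9 and 12.2 kb in hindlimb. Of the 6 outside, chr13:55941462-55942699 lay beside the Pitx1 window. The best ranked of the rest was chr14:22808742-22809544, at percentile 64.3 and 65.6 of the hindlimb libraries, with 803 bp covered in the E11.5 hindlimb list.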

How the data were processed

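Peak lists of 4 E10.5 H3K27ac, 4 E10.5 H3K27me3 and 2 E11.5 H3K27ac libraries were used. Input and mRNA samples are not used here. The submitters' processing notes name build mm9, Bowtie 0.12.3 for alignment and MACS 1.37 for peaks. The E10.5 peak lists, 1 for each library, were made at a caller threshold of 1e-05, per the file headers. Peak starts and ends are positions in bp, deposited by the authors. The score deposited with each E10.5 peak is the caller's -10 log10 of p, and it served only for ranks inside a list. The E11.5 lists have no score column, and neighbouring peaks lie at least 1001 bp apart. Widths and kilobases are therefore not comparable between stages. Only the order of limbs or loci within a stage is set beside that of the other stage. The input behind each list is not stated by the headers.

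Lists were merged at gap 0. Bins of 20 kb with a mean of at least 500 covered bp were tested with limma 3.58.1 (R 4.3.3, trended empirical Bayes, Benjamini-Hochberg adjustment, threshold 0.05). The code was also run on simulated data with equal normal spread in every bin. The called bins had 0 bp and no spread in 1 limb, so that run does not check their p. Locus values were compared with an exact permutation test over libraries. Intervals are 95% Wilson intervals (SciPy 1.17.1). Groups, replicate numbers and stages follow the samples' titles. Gene models of mm9 were not used here. The 29 locus windows were placed by hand from general knowledge of mm9; all 29 lay on the chromosome that a GRCm38.p6 table gives, and on all 6 chromosomes with several windows they followed its order. This does not check their bounds. Windows for the blood genes Gata1 and Hbb were not placed. The regions, loci and lists were chosen with earlier results of these data known. Named are the 10 best ranked limb-only regions per limb, every bin past the threshold, groups of at least 4 limb-only regions joined within 100 kb, and the listed loci. Other bins and regions were named after their values were seen. Alternatives covered list length, threshold, merge gap, detection rule, pseudocount, filter, scaling, bin width and offset, replicate block and leaving out each library.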

Additional observations from a re-analysis of the deposited data

Results flagged for a closer look

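In 10 of the 29 windows the difference between the limbs had opposite signs at E10.5 and E11.5, in each case with the higher E10.5 mean in forelimb. Only 13 windows had the higher E10.5 mean in forelimb, so 10 of these 13 had more in hindlimb at E11.5. Over all tested bins 80.6% had more in the E11.5 hindlimb list, so the count by itself is not particular to these windows. Of the 9 windows whose E10.5 libraries did not overlap between the limbs, Prrx1 and Shox2 were the 2 with opposite signs. Prrx1 had 1.99 kb more H3K27ac in forelimb than in hindlimb at E10.5 (difference of means, n = 2 each), and forelimb minus hindlimb was -9.62 kb at E11.5. Shox2 had 3.08 kb more in forelimb at E10.5, and forelimb minus hindlimb was -2.09 kb at E11.5. The difference between the stages was not tested, since E11.5 has 1 library per limb. Sizes in kb are not comparable between the stages, so only the signs are set side by side. The E11.5 hindlimb list covered 47.2 Mb and the E11.5 forelimb list 31.3 Mb, and the part of list length in these values was not tested.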

How the results depend on the processing

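The 4 bins called by limma at Tbx5, Pitx1 and HoxC remained called with a smaller and a larger pseudocount, without the filter, on scaled coverage, with lists of equal length, with the top 50% of each list and under the replicate block. They were lost without forelimb replicate 1 or 2, with the same direction, when the lone forelimb library is assumed to vary like the hindlimb pair. Bins higher in forelimb numbered 5 on scaled coverage, 1 with 50 kb bins and 0 to 2 when single libraries were left out. Bins higher in hindlimb numbered 10 on scaled coverage, 5 with 10 kb bins, 4 with bins shifted by 10 kb, 5 under the replicate block and 0 to 3 when single libraries were left out. Deviations of same-numbered libraries correlated at -0.0228 across bins, so the numbers were not taken as a pairing. With the top 50% of each list there were 506 forelimb-only and 488 hindlimb-only regions. There were 1400 to 7205 and 1058 to 5128 when single libraries were left out, which loosens the rule. With lists of equal length, 7.01% of forelimb-only and 14.3% of hindlimb-only regions were in the E11.5 hindlimb list alone. Leaving out single libraries gave 7.30 to 14.5% and 9.84 to 18.1% for these shares, and 1.72 to 2.76% of forelimb-only and 1.14 to 1.99% of hindlimb-only regions in the E11.5 forelimb list alone. H3K27me3 of both hindlimb libraries lay within 10 kb of 14.7% of forelimb-only and 14.4% of hindlimb-only regions, and that of both forelimb libraries near 9.12% and 13%. The touching shares when single libraries were left out were 4.41 to 6.29% and 4.46 to 6.24% for hindlimb H3K27me3, and 1.88 to 3.16% and 3.54 to 5.95% for forelimb H3K27me3, in forelimb-only and hindlimb-only regions. Outside the locus windows, an alternative chosen after seeing the data, 4.19% of hindlimb-only regions touched H3K27me3 of both forelimb libraries. No called difference changed sign. Apart from fewer libraries, shorter lists or a wider distance, the cause of these changes was not tested. Depth is unknown and limits every absence of a peak.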
